A study of Homo sapiens with 30 samples.

Results

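The integrated stress response raises translation of the transcription factor ATF4 when amino acids run short or the endoplasmic reticulum is stressed, and ATF4 with its C/EBP partners switches on genes that make, import and charge amino acids onto tRNA. Here 34 such genes, chosen by name with earlier results of these data known, were followed in activated Jurkat cells. They were enzymes of amino acid synthesis and one-carbon metabolism, amino acid transporters, transcription factors, growth and secreted outputs, and cytosolic aminoacyl-tRNA synthetases. These synthetases load each tRNA with its amino acid. All 34 symbols were among the 54300 in the deposited counts, and all 34 passed the filter on low counts that left 21554 symbols for testing. ATF4 itself is no member and is described with the other regulators near the end. T cells that are activated take up more amino acids and build more protein, and amino acid supply is known to limit their growth.

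Jurkat E6-1 is a human T cell leukaemia line. WT cells and cells without isoform 1 of SLAMF6 (KO), a lymphocyte surface receptor of the SLAM family, were sampled unstimulated (0 h) and 6, 12, 24 and 36 h into activation with PMA and ionomycin, which together mimic T cell receptor signalling. The treatment protocol describes a 48 h cytokine assay with PMA at 200 ng/ml and ionomycin at 300 ng/ml, and calls the edited cells SLAMF6∆17-65. All groups after 0 h share both agents. The time labels carry no unit, and hours were assumed from that protocol. Each of the 10 groups holds 3 libraries. Whether the KO is 1 clone, and whether the 3 libraries of a group are separate cultures, is not stated in the labels, so the p-values reflect library-to-library spread, which may be technical. The title mentions overexpression of isoform 3, and the groups here follow the design text, a knockout of isoform 1.

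Libraries held 5.64 to 28.2 M counts with a median of 20.5 M. Among the shallowest were the second libraries of 0 h, with 7.59 M in WT and 5.64 M in KO. All 9 T cell markers checked were above 1 CPM in every group, where their summed level ran from 3710 to 6120 CPM. The 6 monocyte markers summed to at most 45.6 CPM, and those of B cells, adherent lines and erythroid cells to at most 33.5, 6.17 and 1.06 CPM. Counts per gene symbol do not separate isoforms, and SLAMF6 stood at 19, 25.1 and 19.4 CPM in WT and 18.2, 21 and 18.6 CPM in KO at 0 h, so the knockout of isoform 1 could not be checked at this level. Mitochondrially encoded symbols took 8.10 to 9.35% of counts in WT at 36 h and 4.49 to 5.59% in KO at 36 h. At 0 h they took 5.96 to 6.02% in WT and 7.19 to 7.85% in KO. Within several groups 1 library was the highest for most of the 34 members: KO 24 h replicate 3 for 27, WT 12 h replicate 1 for 23, KO 36 h replicate 3 for 22, WT 24 h replicate 3 for 21, and WT 0 h replicate 3 and KO 12 h replicate 1 for 20 each. In the titles, WT libraries of 0 to 24 h carry the letter A and KO libraries the letter B, and both genotypes carry C at 36 h. What the letters stand for is not stated, so up to 24 h whatever they mark cannot be told apart from genotype, and at 36 h from time. Levels are CPM values scaled by TMM, which do not correct for gene length, so they are compared within a gene and not between genes. Differences are log2 values ± SE from 1 edgeR quasi-likelihood fit, and a gene was called at a Benjamini-Hochberg adjusted p under 0.05. These are bulk libraries, in which fewer cells expressing a gene and less of its RNA per cell cannot be told apart.

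ATF4 dimers bind a composite C/EBP-ATF response element, for which the core TGATGNAA was searched on both strands of the RefSeq promoter windows (GRCh38.p14, 250 bases before to 50 after each start). The core was found in 12 of the 28 members that had a window, 42.9%, against 4.46% of 27305 genes. Counted by window it was in 27.9% of 43 member windows and 3.62% of 35116 windows in all. Among the synthetase members, 7 of 10 with a window held it (AARS, CARS, GARS, IARS, MARS, NARS and TARS), while EPRS, SARS and WARS did not, and 0 of 6 other cytosolic and 1 of 14 mitochondrial synthetase genes did. The other members with a match were ASNS, SLC3A2, SLC1A4, SLC1A5 and CEBPG. It was in 0 of 3 serine, glycine and one-carbon enzymes and 0 of 4 growth and secreted outputs with a window. The core was not particular to the members. Outside them, it was in 4 of 15 regulators of the integrated stress response, 26.7%, and 5 of 16 other amino acid pathway genes, 31.2%. Counted by window, the latter list had it in 28%. The 7 synthetase stretches are shown because they hold the same core, with the stretch of ASNS, a textbook amino acid response gene, and of CEBPG, a C/EBP family gene. Each is 30 bases, 5′ to 3′ on the gene's strand, with the 8 matching bases in capitals. In NARS, ASNS and CEBPG the core reads along the gene's strand, and in the other six it lies on the opposite strand and is printed as its reverse complement.
AARS: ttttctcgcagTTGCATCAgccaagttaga
CARS: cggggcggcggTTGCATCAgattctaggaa
GARS: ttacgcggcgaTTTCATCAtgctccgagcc
IARS: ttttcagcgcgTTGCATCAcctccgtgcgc
MARS: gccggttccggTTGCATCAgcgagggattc
NARS: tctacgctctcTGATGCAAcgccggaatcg
TARS: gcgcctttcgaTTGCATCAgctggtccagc
ASNS: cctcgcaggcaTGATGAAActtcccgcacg
CEBPG: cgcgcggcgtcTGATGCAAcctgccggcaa
The stretches lie at chr16:70289675-70289704 (AARS), chr11:3057407-3057436 (CARS), chr7:30594834-30594863 (GARS), chr9:92293692-92293721 (IARS) and chr12:57488053-57488082 (MARS). Those of the other four lie at chr18:57621804-57621833 (NARS), chr5:33440956-33440985 (TARS), chr7:97872458-97872487 (ASNS) and chr19:33374060-33374089 (CEBPG). GARS, MARS, TARS and CEBPG are on the plus strand and the rest on the minus strand. The match began between position -187 in AARS and position 14 in NARS, counted from the start. The match is a match of letters and shows no binding. The members were chosen by name as genes that ATF4 and its partners switch on, so their share with the core is not independent of that choice.

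At 6 h more members fell than rose, and at 24 and 36 h more rose than fell, in both genotypes. At 6 h, 5 members rose and 9 fell in WT, where 11.8% of all tested symbols rose and 10.5% fell. In KO at 6 h, 5 rose (14% of all symbols) and 12 fell (13.2%). At 12 h, 5 rose (14.8%) and 12 fell (15.6%) in WT, and 9 rose (14.1%) and 10 fell (13.7%) in KO. At 24 h, 15 rose (17.3%) and 8 fell (17%) in WT, and 20 rose (16.1%) and 3 fell (16.7%) in KO. At 36 h, 15 rose (20.2%) and 5 fell (19%) in WT, and 24 rose (18.6%) and 1, PHGDH, fell (18%) in KO. The members' median change at 36 h was 0.341 in WT and 0.589 in KO, where the medians of all symbols were 0.014 and 0.0443. From 6 to 12 h, 1 member rose (3.85%) and 5 fell (5.64%) in WT, and 8 rose (5.08%) and 3 fell (5.75%) in KO. Of the 9 rises in KO at 12 h, 3 were kept in every alternative, and the balance there turned with single libraries: 9 rose and 7 fell without KO 12 h replicate 2, 8 and 7 without KO 0 h replicate 3, 4 and 10 without KO 0 h replicate 2, and 5 and 7 without KO 12 h replicate 3. Abundant symbols were called more often. Of the 9151 symbols averaging at least 10 CPM, 19.3% rose and 19.2% fell in WT at 6 h, against 5 and 9 of the 30 members at that level. In WT at 12 h the shares were 18.9% and 30.1%, against 4 and 12 of 30. In KO they were 21.4% and 21.8% at 6 h, against 5 and 10 of 30, and 21.2% and 23.3% at 12 h, against 9 and 9. At 36 h they were 28.9% and 32.9% in WT, against 14 and 5 of 30, and 25.6% and 30.7% in KO, against 22 and 1. Since WT at 12 h moved the median of all symbols by 0.116, changes there are relative to that shift.

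**Figure D1:**
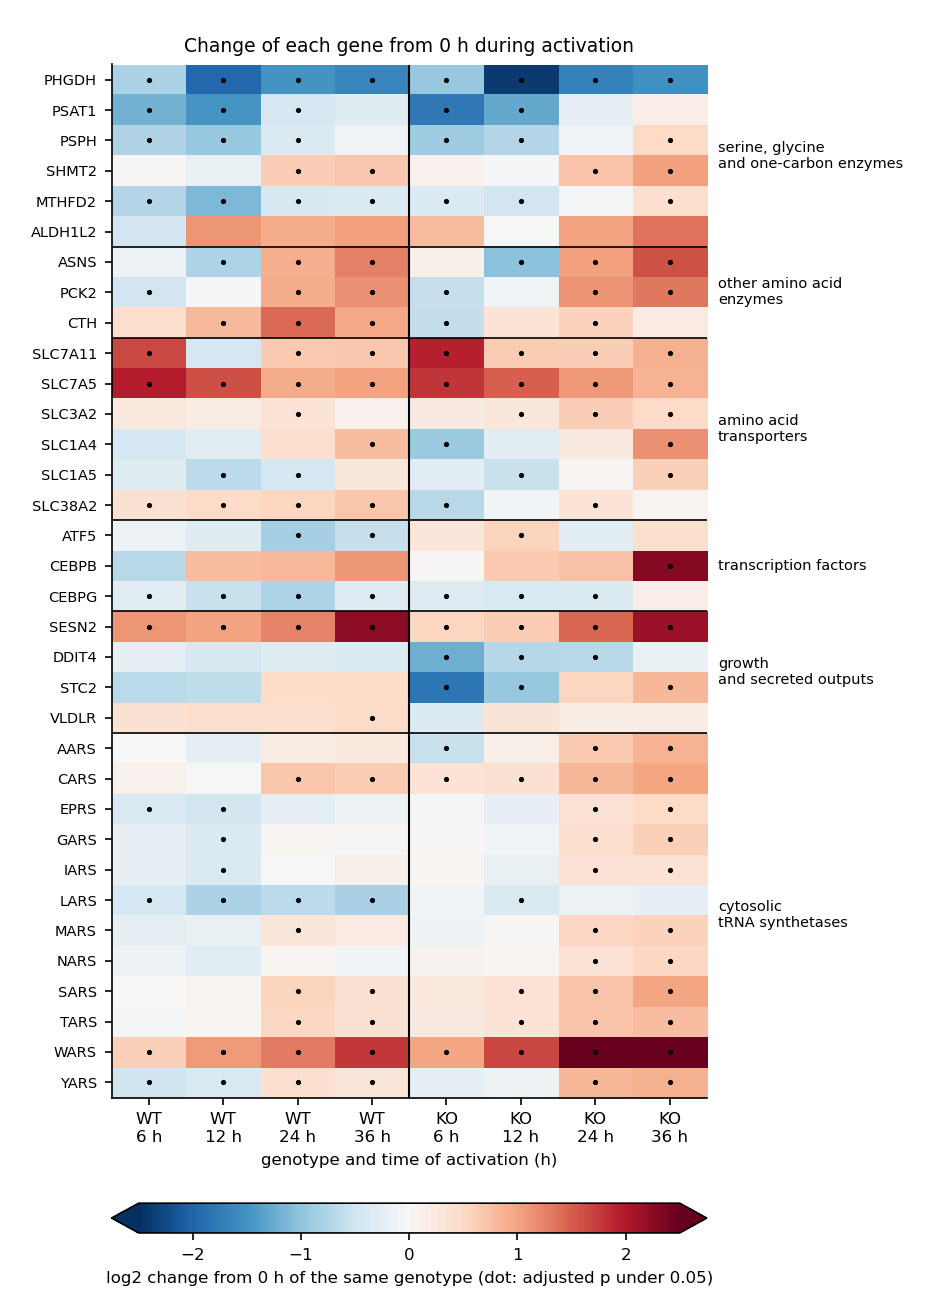
Log2 change from 0 h of the same genotype (colour) for each of the 34 genes (rows, by role) at 6, 12, 24 and 36 h in WT and KO (columns); dots mark an adjusted p under 0.05. The 24 genes called higher in KO at 36 h include 11 of the 12 tRNA synthetases, and PHGDH is called lower in all 8 columns.

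Between genotypes, the fewest members differed at 0 h and the most at 36 h. At 0 h, 1 member was higher in KO (2.96% of all symbols), SLC38A2, and 1 lower (3.11%), STC2. Both calls were lost when any 1 of the 6 libraries of 0 h was left out. At 6 h, 5 were higher (5.21%) and 7 lower (4.76%), a total of 12 that ranged from 6 to 12 with 1 library left out. At 12 h, 6 were higher (6.07%) and 1 lower (5.52%). At 24 h, 15 were higher (4.97%) and 1 lower (4.76%). At 36 h, 19 were higher (6.95%) and 0 lower (6.52%), and 29 of the 34 had a difference above 0. The median difference of the members was 0.0732, 0.153, 0.189, 0.316 and 0.452 at the 5 times in order. The medians of all symbols were -0.00529, -0.011, -0.0033, -0.00915 and -0.00208. Of the symbols averaging at least 10 CPM, 12.3% were higher at 36 h, against 19 of the 30 members at that level, and 8.91% at 24 h, against 15 of 30.

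Of the 19 calls at 36 h, 12 were kept in every alternative run: MTHFD2, SLC3A2, ATF5, CEBPG, AARS, CARS, EPRS, GARS, LARS, SARS, WARS and YARS. The other seven (PSAT1, PCK2, SLC7A11, SLC1A5, MARS, NARS and TARS) were each lost when some single library of 36 h was left out, the shallow WT 36 h replicate 2 (8.54 M counts) for 6 of them, and the count then ran from 13 to 19. With only the groups compared, 23 members were called higher and 2 lower at 36 h. The mitochondrial share of counts moved with genotype at 36 h, and 20 members were called at 36 h with the mitochondrially encoded symbols left out. The summed monocyte markers also moved with genotype, from 8.07 to 9.75 CPM in WT and from 21.5 to 24 CPM in KO at 36 h, and from 9.71 to 16.6 and from 30.2 to 45.6 CPM at 12 h. At 36 h, 3 of these 6 markers, CD68, CSF1R and ITGAM, had means above 1 CPM in each genotype. CD68, a lysosomal protein not limited to monocytes, made up most of the sum, with means of 6.21 CPM in WT and 18.2 in KO. The other markers, CD14 and LYZ, had means of at most 0.252 CPM at 36 h, and FCGR1A was at 0 in all 6 libraries. The summed T cell markers ran from 4610 to 4930 CPM in WT and from 3710 to 3990 CPM in KO at 36 h. The part of these markers in the genotype results was not tested. The calls at 24 h were less firm. Without KO 24 h replicate 3, 6 members were called, 5 higher and 1 lower; without WT 24 h replicate 1 or 2, 6 and 8 were called. WARS and SLC1A5 were the 2 members called at 24 h in every alternative.

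**Figure D2:**
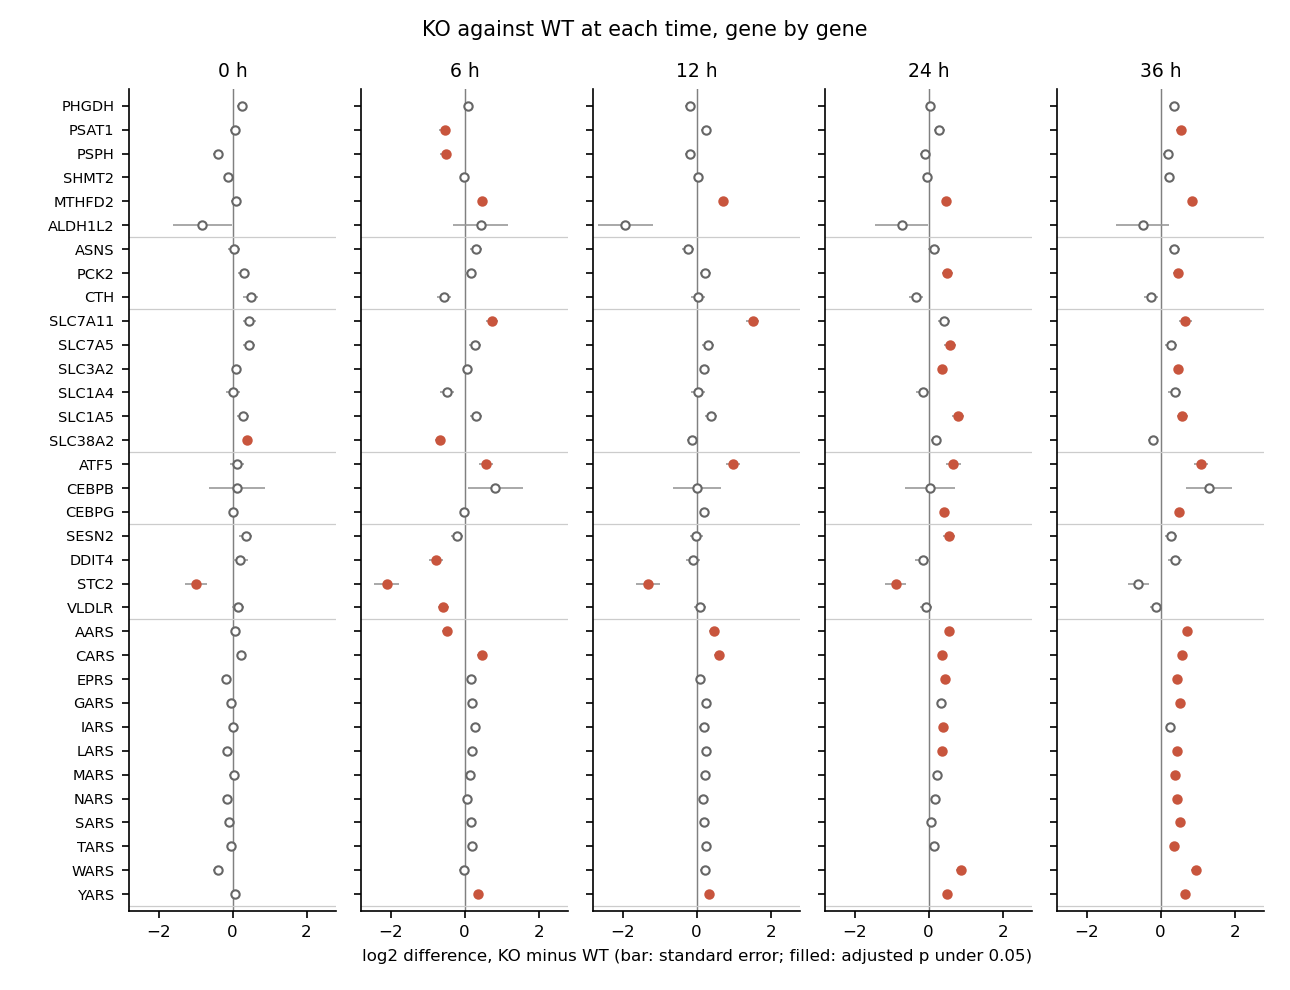
Log2 difference between KO and WT (x axis, bar: standard error) for each of the 34 genes (y axis, by role) at 0, 6, 12, 24 and 36 h (panels); filled points have an adjusted p under 0.05. Filled points move from both sides of 0 at 6 h to the right of 0 in all 19 cases at 36 h.

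Of the 6 serine, glycine and one-carbon enzymes, 4 fell early. PHGDH, PSAT1, PSPH and MTHFD2 were lower at 6 and at 12 h in both genotypes, and SHMT2, the mitochondrial serine hydroxymethyltransferase, was higher at 24 and 36 h in both. PHGDH, which starts serine synthesis, went from 426 ± 28.7 to 109 ± 15 CPM at 12 h in WT and from 506 ± 17.8 to 96.1 ± 7.32 in KO (mean ± SD, n = 3). Its change at 36 h was -1.63 ± 0.12 (adjusted p = 8.26e-13) in WT and -1.52 ± 0.12 (adjusted p = 3.24e-12) in KO, so it stayed below its starting level in both. PSPH, the last step of serine synthesis, was -0.51 in KO against WT at 6 h (adjusted p = 0.0125), a call lost without WT 6 h replicate 3, KO 6 h replicate 1 or KO 6 h replicate 3 (adjusted p = 0.0684 to 0.11).

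PSAT1, the middle step of serine synthesis, fell at 6 and 12 h in both genotypes and was not called below its start at 36 h in either. In WT, PSAT1 stood at 234, 238 and 234 at 0 h, 105, 101 and 104 at 6 h, 90.7, 82.9 and 81.6 at 12 h, 140, 170 and 216 at 24 h, and 205, 174 and 191 at 36 h. In KO, PSAT1 stood at 239, 247 and 254 at 0 h, 62.8, 80.2 and 69.9 at 6 h, 109, 95.4 and 99.3 at 12 h, 178, 173 and 293 at 24 h, and 263, 266 and 303 at 36 h. KO libraries lay below all WT libraries at 6 h and above them at 36 h. The difference between genotypes was -0.54 ± 0.14 (adjusted p = 0.0112) at 6 h and 0.55 ± 0.14 (adjusted p = 0.00726) at 36 h. The time course differed between genotypes in the joint test over the 4 later times (adjusted p = 0.00339). The single-time calls were lost without KO 6 h replicate 1 (adjusted p = 0.088) at 6 h and without WT 36 h replicate 2 or KO 36 h replicate 3 (adjusted p = 0.0511 to 0.053) at 36 h.

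MTHFD2, the mitochondrial one-carbon enzyme that is low in most resting adult tissues, was lower at 6 and 12 h in both genotypes and ended apart. In WT, MTHFD2 was at 365, 382 and 354 at 0 h, 221, 226 and 215 at 6 h, 177, 165 and 163 at 12 h, 231, 263 and 336 at 24 h, and 289, 285 and 296 at 36 h. In KO, MTHFD2 was at 378, 402 and 384 at 0 h, 300, 313 and 304 at 6 h, 280, 275 and 279 at 12 h, 320, 330 and 497 at 24 h, and 504, 490 and 570 at 36 h. The groups overlapped at 0 and 24 h, and every KO library was above every WT library at 6, 12 and 36 h. The change at 36 h was -0.34 ± 0.12 (adjusted p = 0.0219) in WT and 0.43 ± 0.12 (adjusted p = 0.00399) in KO. The WT call was lost without WT 0 h replicate 1, WT 0 h replicate 2, WT 36 h replicate 1 or WT 36 h replicate 2 (adjusted p = 0.0557 to 0.0953), and the fall in KO at 6 h without KO 0 h replicate 1, KO 0 h replicate 2, KO 0 h replicate 3, KO 6 h replicate 1 or KO 6 h replicate 3 (adjusted p = 0.0577 to 0.0862). The KO excess was 0.72 ± 0.12 (adjusted p = 6.13e-05) at 12 h and 0.85 ± 0.12 (adjusted p = 4.48e-06) at 36 h. The joint test gave an adjusted p of 0.015. ALDH1L2, a mitochondrial folate enzyme, was below 1 CPM on average in every group and was called in no comparison.

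Among the other amino acid enzymes, ASNS, which makes asparagine, and PCK2, the mitochondrial PEP carboxykinase, ended above their start in both genotypes. In WT, ASNS stood at 98.4, 88.1 and 87.7 at 0 h, 74.2, 80 and 93.7 at 6 h, 62.5, 55 and 44.4 at 12 h, 139, 138 and 239 at 24 h, and 234, 192 and 229 at 36 h. In KO, ASNS stood at 90.5, 95.1 and 96.1 at 0 h, 98.8, 104 and 102 at 6 h, 43.3, 43.7 and 51.4 at 12 h, 167, 162 and 244 at 24 h, and 267, 289 and 290 at 36 h. It dipped at 12 h and rose by 24 h in both genotypes, and the change at 36 h was 1.26 ± 0.16 (adjusted p = 6.53e-08) in WT and 1.59 ± 0.16 (adjusted p = 5.42e-10) in KO. KO libraries were above WT at 36 h without overlap, but the difference of 0.37 ± 0.15 did not pass (adjusted p = 0.119).

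PCK2 turns mitochondrial oxaloacetate into phosphoenolpyruvate. In WT, PCK2 measured 19.4, 18.6 and 19.7 at 0 h, 12.2, 18.2 and 11.9 at 6 h, 18.3, 16.2 and 21.4 at 12 h, 35.2, 36.2 and 38.1 at 24 h, and 39.1, 43.4 and 45.6 at 36 h. In KO, PCK2 measured 23.7, 22.6 and 24.5 at 0 h, 15.6, 15.7 and 16.2 at 6 h, 20.6, 22.8 and 22.6 at 12 h, 42.6, 46 and 66.8 at 24 h, and 59.4, 59.3 and 58.4 at 36 h. PCK2 rose after 12 h in both genotypes, by 1.15 ± 0.15 (adjusted p = 8.78e-08) in WT and 1.32 ± 0.15 (adjusted p = 4.28e-09) in KO at 36 h. The KO excess of 0.47 ± 0.14 (adjusted p = 0.0227) at 36 h was lost when any 1 of 5 libraries was left out, WT 36 h replicate 1, WT 36 h replicate 2, KO 36 h replicate 1, KO 36 h replicate 2 or KO 36 h replicate 3 (adjusted p = 0.0586 to 0.113). In WT, CTH was at 4.93, 4.69 and 4.99 at 0 h, 6.67, 6.44 and 6.9 at 6 h, 9.93, 8.13 and 7.68 at 12 h, 13.7, 13.9 and 11.7 at 24 h, and 11.8, 7.42 and 9.09 at 36 h. In KO, CTH was at 5.18, 6.16 and 9.06 at 0 h, 4.19, 4.59 and 4.87 at 6 h, 9.93, 9.53 and 6.69 at 12 h, 10.6, 10.2 and 10.3 at 24 h, and 7.44, 7.4 and 8.86 at 36 h. CTH, which makes cysteine from cystathionine, rose in WT at 12, 24 and 36 h. In KO, the change was 0.58 ± 0.19 (adjusted p = 0.0179) at 24 h and 0.20 ± 0.19 (adjusted p = 0.47) at 36 h, and the joint test did not pass (adjusted p = 0.0667). The CTH call in KO at 24 h was lost without KO 0 h replicate 1, KO 0 h replicate 2 or KO 24 h replicate 1 (adjusted p = 0.0538 to 0.165).

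Of the transporters, SLC7A5 and SLC7A11 rose at 6 h in both genotypes. SLC7A5 carries leucine and other large neutral amino acids in a pair with SLC3A2, and SLC7A11 exchanges cystine for glutamate, also with SLC3A2. In WT, SLC7A5 stood at 144, 177 and 172 at 0 h, 655, 588 and 671 at 6 h, 566, 416 and 528 at 12 h, 313, 334 and 297 at 24 h, and 290, 332 and 369 at 36 h. In KO, SLC7A5 stood at 219, 228 and 220 at 0 h, 1000, 478 and 826 at 6 h, 790, 565 and 529 at 12 h, 487, 455 and 478 at 24 h, and 377, 449 and 387 at 36 h. All libraries at 6 h were above all at 0 h in both genotypes, and the KO libraries of 6 h were spread widely. The rise at 6 h was 3.88-fold in WT (log2 1.96 ± 0.17, adjusted p = 4.97e-11) and 3.46-fold in KO (log2 1.79 ± 0.17, adjusted p = 2.06e-10). It was higher in KO at 24 h by 0.59 ± 0.16 (adjusted p = 0.0162), a call lost without KO 24 h replicate 1 (adjusted p = 0.0502), and its joint test did not pass (adjusted p = 0.78).

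In WT, SLC7A11 was at 6.56, 6.84 and 7.33 at 0 h, 20.8, 21.2 and 23.7 at 6 h, 4.57, 5.43 and 5.39 at 12 h, 10, 12.4 and 10.3 at 24 h, and 9.43, 15 and 9.42 at 36 h. In KO, SLC7A11 was at 9.01, 9.16 and 10.1 at 0 h, 32.5, 42.7 and 34.2 at 6 h, 14.7, 13.4 and 16.2 at 12 h, 16.3, 11.3 and 15.8 at 24 h, and 16.4, 19.1 and 17.3 at 36 h. In both genotypes it peaked at 6 h, and at 12 h every WT library was below its 0 h libraries while every KO library was above them. The change at 12 h was -0.43 ± 0.18 (adjusted p = 0.0734) in WT and 0.64 ± 0.17 (adjusted p = 0.00366) in KO. KO exceeded WT by 2.86-fold at 12 h (log2 1.52 ± 0.17, adjusted p = 1.46e-07), and the change from 0 h differed between genotypes at 12 h by 1.07 ± 0.25 (adjusted p = 0.0133). The joint test gave 0.0104. The KO excess at 36 h, 0.67 ± 0.17 (adjusted p = 0.00485), was lost without WT 36 h replicate 1 or WT 36 h replicate 3 (adjusted p = 0.0518 to 0.0547).

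SLC38A2, a transporter of small neutral amino acids such as glutamine and alanine, was the transporter with the smallest joint p (0.000432). In WT, SLC38A2 stood at 134, 132 and 106 at 0 h, 166, 149 and 171 at 6 h, 190, 165 and 161 at 12 h, 186, 187 and 167 at 24 h, and 190, 197 and 211 at 36 h. In KO, SLC38A2 stood at 164, 167 and 160 at 0 h, 110, 77.4 and 118 at 6 h, 179, 155 and 136 at 12 h, 190, 205 and 225 at 24 h, and 163, 182 and 172 at 36 h. From 0 to 6 h every WT library lay above and every KO library below those of its own 0 h. The change at 6 h was 0.39 ± 0.12 in WT and -0.68 ± 0.12 (adjusted p = 3.86e-05) in KO, a difference of -1.07 ± 0.17 (adjusted p = 0.000249). At 36 h the change differed by -0.61 ± 0.17 (adjusted p = 0.02), a call lost without WT 0 h replicate 3, WT 36 h replicate 3 or KO 36 h replicate 1 (adjusted p = 0.0565 to 0.0658). The WT rise at 6 h (adjusted p = 0.0178) was lost without WT 0 h replicate 3, WT 6 h replicate 1 or WT 6 h replicate 3 (adjusted p = 0.0571 to 0.144).

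SLC3A2, the shared heavy chain, was higher in KO by 0.47 ± 0.10 (adjusted p = 0.000905) at 36 h. SLC1A5, a glutamine exchanger, was higher in KO by 0.79 ± 0.16 (adjusted p = 0.00111) at 24 h, and by 0.59 ± 0.16 (adjusted p = 0.0106) at 36 h, where the call was lost without WT 36 h replicate 2 or KO 36 h replicate 2 (adjusted p = 0.0633 to 0.0666). SLC1A4, its relative for alanine and serine, rose by 36 h in WT (0.78 ± 0.18, adjusted p = 0.000526) and in KO (1.14 ± 0.18, adjusted p = 2.76e-06) and was not called between genotypes at any time.

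Of the transcription factors, ATF5 and CEBPG were higher in KO at 24 and 36 h, and ATF5 also at 6 and 12 h. In WT, ATF5 stood at 11.2, 8.72 and 12.3 at 0 h, 8.97, 8.55 and 11.9 at 6 h, 9.2, 6.97 and 10.5 at 12 h, 4.42, 6.24 and 7.75 at 24 h, and 7.3, 7.21 and 7.49 at 36 h. In KO, ATF5 stood at 13.9, 8.46 and 12.4 at 0 h, 15.1, 14.5 and 14.2 at 6 h, 16, 16 and 20.6 at 12 h, 9.19, 10.4 and 9.63 at 24 h, and 14, 17.3 and 15.9 at 36 h. The groups overlapped at 0 h, and at each of the 4 later times the KO libraries were all above the WT libraries. The KO level was 1.98-fold that of WT at 12 h (log2 0.98 ± 0.19, adjusted p = 0.000497) and 2.14-fold at 36 h (log2 1.10 ± 0.19, adjusted p = 0.000112). The calls at 6 h (0.043) and 24 h (0.027) were each lost when some single library was left out, at adjusted p of up to 0.196 and 0.204. The ATF5 joint test did not pass (adjusted p = 0.0753).

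CEBPG lacks an activation domain of its own and acts as a dimer partner. In WT, CEBPG was at 72.5, 82.2 and 74.1 at 0 h, 68.8, 65.6 and 52.4 at 6 h, 52, 48.7 and 53.8 at 12 h, 40.7, 48.2 and 44.6 at 24 h, and 60.2, 59.8 and 62.5 at 36 h. In KO, CEBPG was at 71.2, 78.7 and 80.2 at 0 h, 59.7, 67.2 and 56.3 at 6 h, 54.7, 57.8 and 64.4 at 12 h, 63.5, 58 and 58 at 24 h, and 78.6, 84.4 and 93.6 at 36 h. CEBPG was lower at 12 h than at 0 h in both genotypes, in KO not without KO 0 h replicate 3 (adjusted p = 0.0554), and KO stood above WT without overlap from 12 h on. The KO excess was 0.49 ± 0.11 (adjusted p = 0.00132) at 36 h. Its joint call (adjusted p = 0.0374) was lost when any 1 of 18 libraries was left out (adjusted p = 0.0511 to 0.0941). CEBPB, a C/EBP factor of macrophages and liver, stayed near the limit of detection. In WT, CEBPB measured 0.388, 0.536 and 0.293 at 0 h, 0.552, 0.0961 and 0.0463 at 6 h, 1.01, 0.481 and 0.495 at 12 h, 0.354, 0.78 and 0.89 at 24 h, and 0.453, 0.43 and 1.51 at 36 h. In KO, CEBPB measured 0.552, 0.705 and 0.15 at 0 h, 0.645, 0.131 and 0.487 at 6 h, 0.73, 0.385 and 0.863 at 12 h, 0.324, 0.844 and 0.889 at 24 h, and 1.11, 2.37 and 2.67 at 36 h. Its rise in KO at 36 h (2.30 ± 0.68, adjusted p = 0.00721) rested on levels of at most 2.67 CPM and was lost without KO 0 h replicate 3 (adjusted p = 0.0714).

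Of the 4 growth and secreted outputs, none was called between genotypes at 36 h. SESN2, a leucine sensor that restrains mTORC1, rose in both genotypes. In WT, SESN2 stood at 8.24, 11.4 and 13 at 0 h, 24.3, 23.2 and 22.1 at 6 h, 27, 17.6 and 20.9 at 12 h, 26, 26.1 and 24.5 at 24 h, and 46.1, 48.8 and 58.2 at 36 h. In KO, SESN2 stood at 11.5, 13 and 16.8 at 0 h, 23.2, 18.7 and 18.3 at 6 h, 21.2, 24.4 and 19.5 at 12 h, 38.5, 31.1 and 42.8 at 24 h, and 54.1, 64.2 and 67.1 at 36 h. At 36 h all libraries were above those of every earlier time of the same genotype, with a rise of 4.71-fold in WT (log2 2.23 ± 0.17, adjusted p = 1.54e-12) and 4.45-fold in KO (log2 2.15 ± 0.17, adjusted p = 2.48e-12). SESN2 was called higher in KO at 24 h, by 0.553, a call not kept in every alternative. Its joint test between genotypes did not pass (adjusted p = 0.125).

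DDIT4, which also restrains mTORC1, was uneven among KO libraries at 6 h. In WT, DDIT4 was at 64.5, 74.6 and 69.9 at 0 h, 61.9, 62.8 and 53.8 at 6 h, 56.4, 43.8 and 57.4 at 12 h, 52.6, 60.1 and 55.8 at 24 h, and 60.4, 50 and 53.5 at 36 h. In KO, DDIT4 was at 84.2, 81.4 and 76.1 at 0 h, 25, 55.4 and 23.4 at 6 h, 37.8, 51.9 and 56.9 at 12 h, 49.2, 44.6 and 56.5 at 24 h, and 72.8, 64 and 78 at 36 h. KO replicate 2 of 6 h lay inside the WT range and the other two below every WT library. The KO change at 6 h was -1.22 ± 0.20 (adjusted p = 7.34e-06), against -0.22 ± 0.19 (adjusted p = 0.465) in WT. The joint call (adjusted p = 0.0257) was lost without WT 6 h replicate 1, WT 6 h replicate 2, KO 6 h replicate 1, KO 6 h replicate 3 or KO 36 h replicate 3 (adjusted p = 0.0584 to 0.0886). STC2, a secreted glycoprotein, differed in KO by -2.11 ± 0.34 (adjusted p = 3.97e-05) at 6 h and had means of 3.79 CPM in WT and 0.875 in KO there. Its KO libraries lay below all WT libraries at every time, also before activation. The KO level was 0.505-fold that of WT at 0 h, and 0.406, 0.539 and 0.659-fold at 12, 24 and 36 h. VLDLR, a lipoprotein receptor, ran from 10.4 to 16.6 CPM in its group means and was lower in KO at 6 h (-0.57 ± 0.16, adjusted p = 0.0178), a call lost without WT 6 h replicate 3, KO 6 h replicate 2 or KO 6 h replicate 3 (adjusted p = 0.0646 to 0.25).

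**Figure D3:**
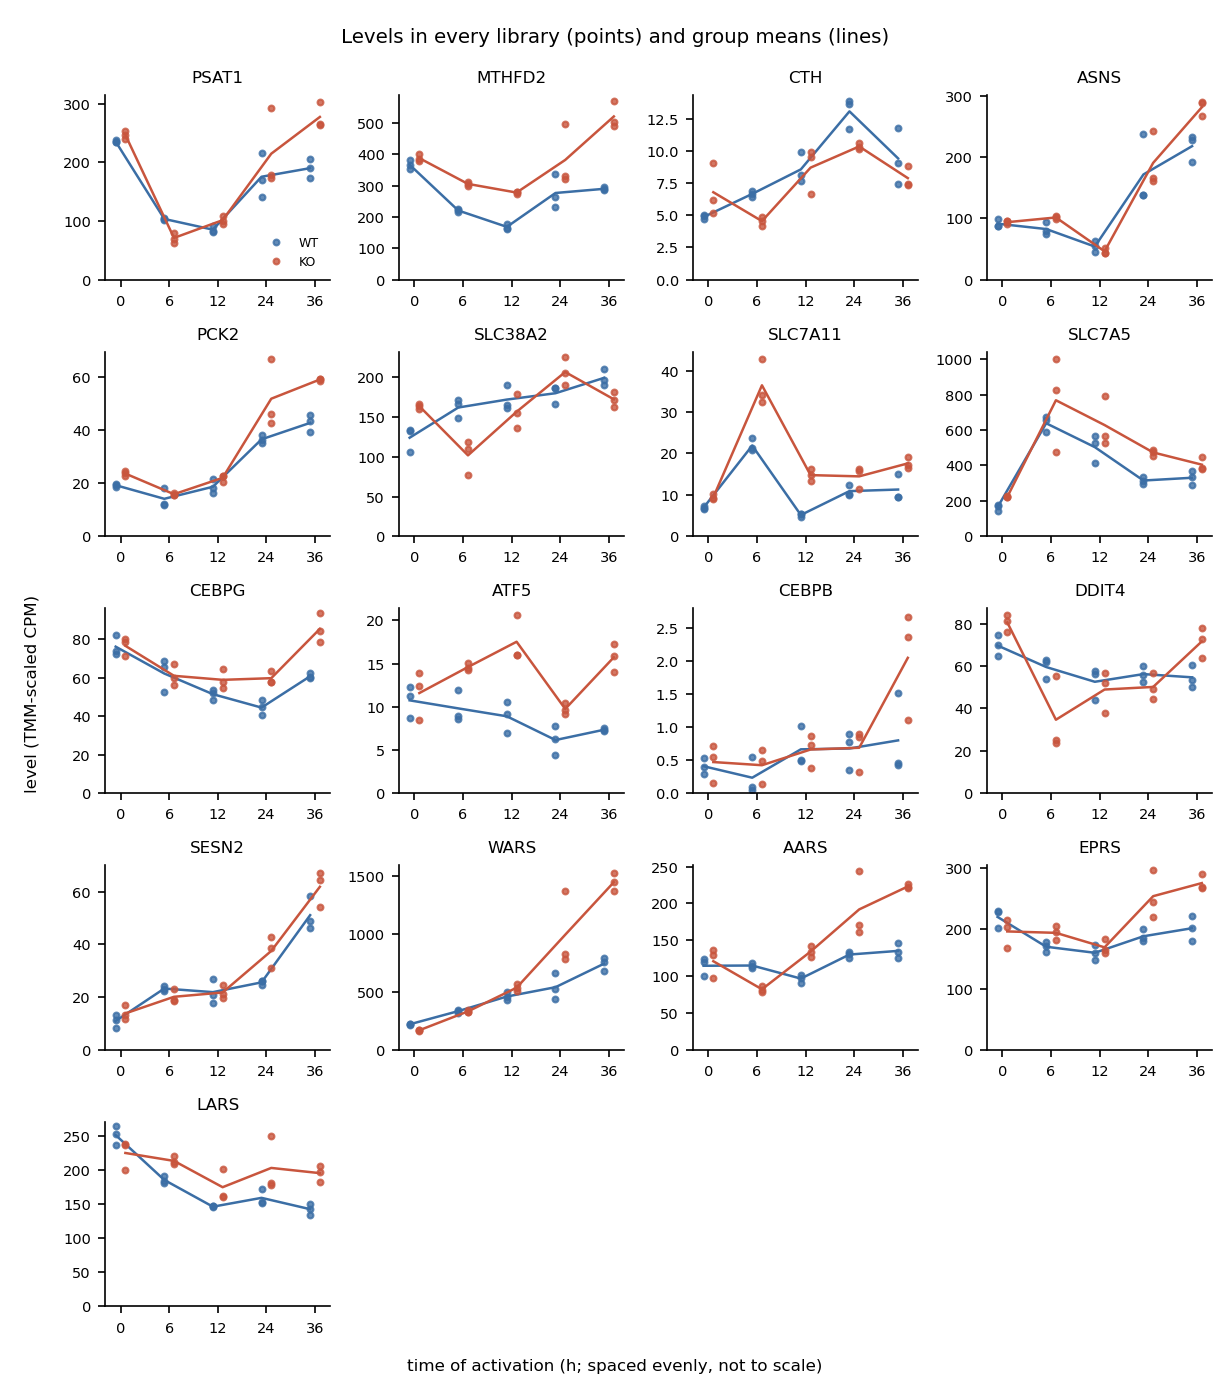
Level in TMM-scaled CPM (y axis, from 0) at each time (x axis, evenly spaced) in each of the 3 libraries of WT and KO (points) with group means (lines), for the 17 genes given library by library. At 36 h all KO points lie above all WT points for WARS, AARS and MTHFD2, as they do at 12 h for SLC7A11.

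The tRNA synthetases had the largest share of calls between genotypes at 36 h: 11 of 12 were higher in KO, against 2 of 6 one-carbon enzymes, 1 of 3 other enzymes, 3 of 6 transporters, 2 of 3 transcription factors and 0 of 4 outputs. Of all symbols, 6.95% were higher in KO at that time. In KO, 11 of 12 rose by 36 h (18.6% of all symbols), against 5 of 12 in WT (20.2%), where LARS fell. The one not called between genotypes was IARS, for isoleucine (0.27 ± 0.11, adjusted p = 0.127). Differences among the 11 ran from 0.349 for TARS to 0.96 for WARS, with a median of 0.484 over all 12. At 0 h none of the 12 was called, and their median difference was -0.0473.

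WARS, the tryptophanyl-tRNA synthetase, which is also known as an interferon-induced gene, was above its start at every later time in both genotypes. In WT, WARS stood at 222, 214 and 223 at 0 h, 347, 339 and 316 at 6 h, 496, 427 and 458 at 12 h, 435, 522 and 666 at 24 h, and 797, 677 and 761 at 36 h. In KO, WARS stood at 173, 160 and 172 at 0 h, 340, 328 and 327 at 6 h, 570, 507 and 533 at 12 h, 832, 784 and 1370 at 24 h, and 1450, 1370 and 1530 at 36 h. Every KO library was below WT at 0 h and above WT from 12 h on. The rise by 36 h was 3.39-fold in WT (log2 1.76 ± 0.14, adjusted p = 2.4e-12) and 8.6-fold in KO (log2 3.10 ± 0.15, adjusted p = 4.07e-18). The KO excess at 36 h was 0.96 ± 0.14 (adjusted p = 5.94e-06). The change differed between genotypes by 1.26 ± 0.20 (adjusted p = 8.33e-05) at 24 h and 1.34 ± 0.20 (adjusted p = 2.06e-05) at 36 h, with a joint adjusted p of 1.45e-05. The mean level of IFNG, which encodes interferon gamma, was 5.08 CPM in WT and 17.9 CPM in KO at 36 h, and its part in the WARS difference was not tested.

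AARS, for alanine, was lower in KO at 6 h and higher in KO later. In WT, AARS was at 120, 100 and 124 at 0 h, 115, 112 and 118 at 6 h, 102, 91.2 and 98.3 at 12 h, 125, 131 and 134 at 24 h, and 134, 125 and 146 at 36 h. In KO, AARS was at 136, 97.6 and 129 at 0 h, 78.6, 87 and 82 at 6 h, 142, 126 and 134 at 12 h, 170, 161 and 244 at 24 h, and 226, 221 and 222 at 36 h. KO libraries were below all WT libraries at 6 h and above them at 12, 24 and 36 h. The genotype difference was -0.48 ± 0.12 (adjusted p = 0.00738) at 6 h, 0.47 ± 0.12 (adjusted p = 0.00892) at 12 h and 0.72 ± 0.12 (adjusted p = 6.09e-05) at 36 h. The joint test gave 3.52e-05. The 6 h call was lost without KO 6 h replicate 1 (adjusted p = 0.0503) and the 12 h call without WT 12 h replicate 2 (adjusted p = 0.0586).

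EPRS, a fused enzyme for glutamate and proline, fell at 6 and 12 h in WT and was not called changed at those times in KO. In WT, EPRS stood at 230, 201 and 228 at 0 h, 162, 171 and 178 at 6 h, 173, 160 and 148 at 12 h, 184, 180 and 199 at 24 h, and 221, 180 and 202 at 36 h. In KO, EPRS stood at 215, 169 and 203 at 0 h, 194, 181 and 205 at 6 h, 183, 165 and 160 at 12 h, 244, 220 and 298 at 24 h, and 267, 269 and 291 at 36 h. KO was above WT without overlap at 6, 24 and 36 h, and the difference was 0.45 ± 0.11 (adjusted p = 0.00293) at 36 h. The WT fall at 6 h was lost without WT 0 h replicate 3 or WT 6 h replicate 1 (adjusted p = 0.0522 to 0.0597). In WT, LARS was at 265, 237 and 254 at 0 h, 182, 192 and 184 at 6 h, 147, 147 and 146 at 12 h, 152, 154 and 173 at 24 h, and 151, 134 and 144 at 36 h. In KO, LARS was at 239, 201 and 237 at 0 h, 221, 209 and 212 at 6 h, 202, 163 and 161 at 12 h, 178, 182 and 251 at 24 h, and 198, 183 and 207 at 36 h. LARS, which charges leucine and also senses it for mTORC1, ended below its start in WT (-0.82 ± 0.11, adjusted p = 1.54e-07), while the change in KO did not pass (-0.21 ± 0.11, adjusted p = 0.144). KO libraries were above WT from 6 h on, by 0.45 ± 0.11 (adjusted p = 0.00361) at 36 h. The joint calls of EPRS (0.0178), LARS (0.0451) and SARS (0.046) were lost with any 1 of 3, 21 and 22 libraries left out, at adjusted p of up to 0.0654, 0.157 and 0.169.

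The remaining 8 synthetases all rose in KO by 36 h. At that time KO exceeded WT by 0.59 ± 0.12 (adjusted p = 0.000639) for CARS (cysteine), 0.52 ± 0.12 (adjusted p = 0.0017) for GARS (glycine), 0.51 ± 0.10 (adjusted p = 0.00061) for SARS (serine) and 0.67 ± 0.10 (adjusted p = 2.83e-05) for YARS (tyrosine). YARS went from 207 ± 8.53 to 256 ± 21.5 CPM in WT and from 218 ± 15.2 to 407 ± 8.42 in KO. CARS was also higher in KO at 12 h (0.59 ± 0.12, adjusted p = 0.000755). For MARS (methionine), NARS (asparagine) and TARS (threonine), the 36 h differences of 0.40, 0.45 and 0.35 were each lost without WT 36 h replicate 2 (adjusted p = 0.114, 0.0525 and 0.127) or KO 36 h replicate 3 (adjusted p = 0.0819, 0.0529 and 0.119).

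Members with the promoter core were called higher in KO at 36 h in 9 of 12 cases, members with a window and no core in 7 of 16, and members with no window given in 3 of 6. Their medians at 36 h were 0.462, 0.421 and 0.344. At 24 h the counts were 6 of 12, 7 of 16 and 2 of 6. Among the synthetases the counts at 36 h were 6 of 7 with the core, 3 of 3 without it and 2 of 2 with no window. At 24 h they were 3 of 7, 2 of 3 and 2 of 2. Of all symbols, 6.95% were higher at 36 h and 4.97% at 24 h. WARS, which had the largest rise of the 12 synthetases in KO at 36 h, is one of those whose windows did not hold these letters. No test was made of these counts.

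Synthetase genes outside the members had smaller median differences between genotypes at 36 h. Of 8 other cytosolic synthetases, 3 were higher in KO at 36 h and 0 lower, with a median of 0.23. Of 17 mitochondrial synthetases, 1 was higher and 1 lower, with a median of 0.118. Of all symbols, 6.95% were higher and 6.52% lower there, and of those averaging at least 10 CPM, 12.3% and 10.3%. At 0 h the median was -0.176 for the other cytosolic synthetases, below the -0.0473 of the members. The change from 0 h to 36 h differed between genotypes for 4 of the 8 other cytosolic synthetases (median 0.337), for 8 of the 12 members (median 0.59) and for 1 of the 17 mitochondrial ones (median 0.182). In all these calls the change in KO was above that in WT, a direction called for 4.71% of all symbols. That direction takes in a fall in WT with no called change in KO, as for LARS. FARSA and FARSB, the subunits of the phenylalanine enzyme, had the smallest joint p of the other cytosolic genes. In WT, FARSB stood at 253, 232 and 224 at 0 h, 188, 172 and 177 at 6 h, 172, 170 and 153 at 12 h, 133, 123 and 179 at 24 h, and 130, 126 and 129 at 36 h. In KO, FARSB stood at 205, 185 and 216 at 0 h, 244, 244 and 242 at 6 h, 252, 184 and 195 at 12 h, 173, 195 and 260 at 24 h, and 208, 182 and 239 at 36 h. FARSB changed in WT by -0.88 ± 0.13 (adjusted p = 1.6e-06) at 36 h and was 0.05 ± 0.13 (adjusted p = 0.813) in KO, and KO exceeded WT by 0.71 ± 0.13 (adjusted p = 0.000262). FARSA changed by -0.96 ± 0.12 (adjusted p = 3.06e-08) in WT at 36 h and was -0.13 ± 0.12 (adjusted p = 0.421) in KO. Of the 3 scaffolds of the multi-synthetase complex, AIMP1 was higher in KO at 36 h (0.53 ± 0.13, adjusted p = 0.00423), and EEF1E1 and AIMP2 were not called there. EEF1E1, at a joint adjusted p of 0.0462, was the scaffold called in the joint test; that call was lost when any 1 of 21 libraries was left out (adjusted p = 0.0509 to 0.125). The members were not tested against these lists.

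**Figure D4:**
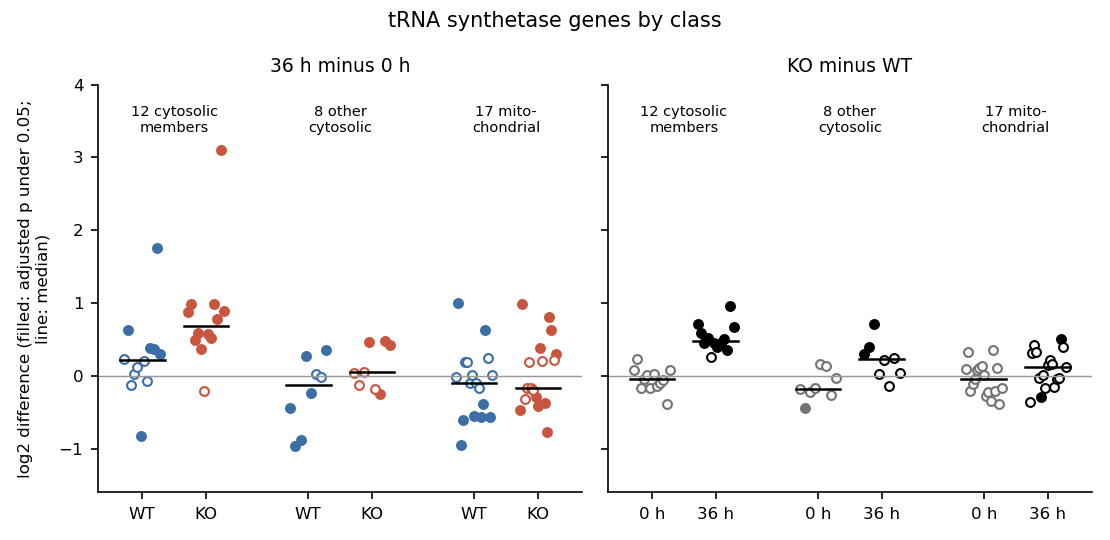
Log2 difference (y axis) of the 12 cytosolic synthetases among the members, 8 other cytosolic and 17 mitochondrial synthetases: left, 36 h minus 0 h in WT and in KO; right, KO minus WT at 0 h and at 36 h. Points are genes, filled at an adjusted p under 0.05, and lines are medians, which at 36 h in the right panel stand at 0.484, 0.23 and 0.118.

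The regulators of the response were counted from a list of 18, of which 14 were tested. In KO against WT, 1 was higher and 1 lower at 0 h, 4 higher and 1 lower at 6 h, and 6 higher and 0 lower at each of 12, 24 and 36 h. Of all symbols, 2.96, 5.21, 6.07, 4.97 and 6.95% were higher at the 5 times in order. The shares lower were 3.11, 4.76, 5.52, 4.76 and 6.52%. Of those averaging at least 10 CPM, 5.6, 9.39, 11.6, 8.91 and 12.3% were higher. ATF4, the central activator, was higher in KO from the start. In WT, ATF4 stood at 143, 104 and 148 at 0 h, 170, 154 and 180 at 6 h, 156, 117 and 132 at 12 h, 151, 160 and 225 at 24 h, and 172, 166 and 192 at 36 h. In KO, ATF4 stood at 238, 170 and 246 at 0 h, 291, 234 and 298 at 6 h, 241, 224 and 230 at 12 h, 242, 224 and 299 at 24 h, and 257, 310 and 241 at 36 h. KO was above WT without overlap at 0, 6, 12 and 36 h. The difference was 0.72 ± 0.15 (adjusted p = 0.00257) at 0 h, 0.71 ± 0.15 (adjusted p = 0.00162) at 6 h and 0.78 ± 0.15 (adjusted p = 0.000567) at 12 h. It was 0.51 ± 0.15 (adjusted p = 0.0255) at 24 h and 0.61 ± 0.15 (adjusted p = 0.00548) at 36 h, calls that were lost at 24 h without WT 24 h replicate 1, WT 24 h replicate 2 or KO 24 h replicate 3 (adjusted p = 0.127 to 0.189) and at 36 h without KO 36 h replicate 2 (adjusted p = 0.051). ATF4 is regulated largely at translation, which these counts do not measure.

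DDIT3, which encodes the stress factor CHOP, peaked at 6 h in both genotypes. In WT, DDIT3 stood at 41.3, 40.9 and 40.6 at 0 h, 112, 117 and 111 at 6 h, 30.6, 34.1 and 31.8 at 12 h, 24.5, 25.2 and 31.1 at 24 h, and 21.3, 21.7 and 24.5 at 36 h. In KO, DDIT3 stood at 23, 26.1 and 23.9 at 0 h, 93.9, 114 and 90.6 at 6 h, 62.7, 73.9 and 96.7 at 12 h, 52, 50.4 and 64.6 at 24 h, and 61.4, 58.9 and 64.8 at 36 h. KO lay below WT at 0 h and above it at 12, 24 and 36 h without overlap. At 12 h the change from 0 h was -0.35 ± 0.13 in WT and 1.69 ± 0.13 (adjusted p = 2.81e-12) in KO, a difference of 2.03 ± 0.18 (adjusted p = 6.29e-09). The joint test gave 5.5e-11.

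TRIB3, a pseudokinase induced by ATF4 and CHOP, reached 124 ± 5.12 CPM in WT and 311 ± 32.6 in KO at 36 h, an excess of 2.51-fold in KO (log2 1.33 ± 0.15, adjusted p = 6.09e-08). CHAC1, which degrades glutathione, had libraries at 20, 16.6 and 19.9 CPM in WT and 32.8, 35.1 and 42.6 in KO at 36 h, and differed by 0.96 ± 0.22 (adjusted p = 0.00243). At 6 h CHAC1 was lower in KO, with a difference of -1.06 ± 0.24 (adjusted p = 0.00364). PPP1R15A, the phosphatase subunit that ends the translational block, was higher in KO at 6 h by 0.89 ± 0.11 (adjusted p = 3.01e-07) and at 12 h by 1.36 ± 0.11 (adjusted p = 6.68e-11). Joint adjusted p were 0.000592 for TRIB3, 0.000913 for CHAC1 and 3.59e-06 for PPP1R15A.

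**Figure D5:**
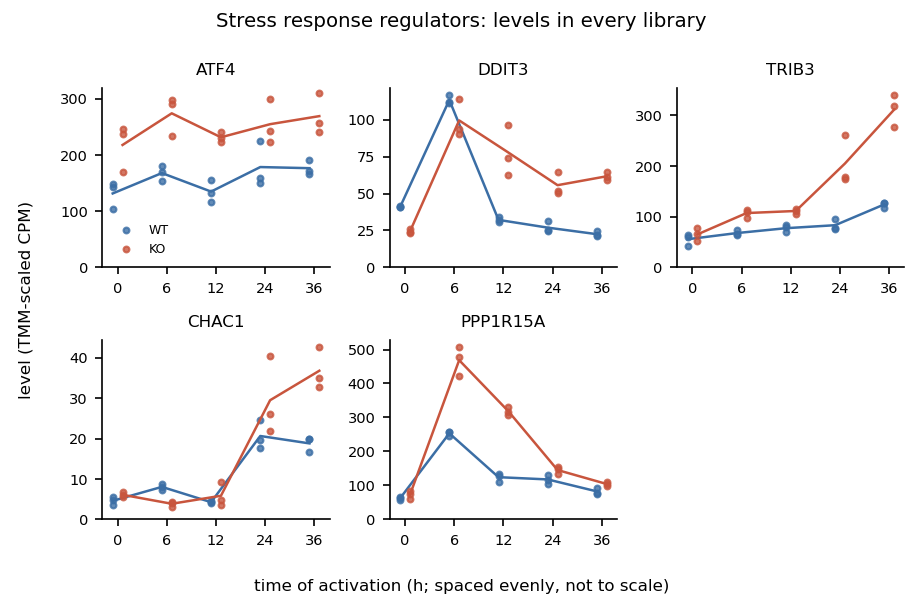
Level in TMM-scaled CPM (y axis, from 0) of ATF4, DDIT3, TRIB3, CHAC1 and PPP1R15A at each time (x axis, evenly spaced) in each WT and KO library (points) with group means (lines). The KO line of ATF4 is above the WT line at all 5 times, and that of DDIT3 crosses it between 6 and 12 h.

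Of 21 other genes of amino acid pathways, 20 were tested, and 7 were higher (6.95% of all symbols) and 0 lower (6.52%) in KO at 36 h. The 3 with the smallest joint p were GADD45A, a stress gene of cell cycle arrest, CBS, which makes cystathionine, and SESN3, a relative of SESN2. GADD45A was at 4.79, 3.27 and 2.87 CPM in WT and 19.3, 21 and 21.2 in KO at 6 h, a difference of 2.49 ± 0.26 (adjusted p = 1.27e-08). CBS changed at 12 h by -1.98 ± 0.17 (adjusted p = 4.15e-11) in WT and -2.65 ± 0.17 (adjusted p = 3.86e-14) in KO. SESN3 was at 7.69, 5.1 and 7.88 CPM in WT and 15.8, 19.9 and 18.8 in KO at 0 h, and differed there by 1.35 ± 0.24 (adjusted p = 0.000453). The joint calls of CBS (0.0114) and SESN3 (0.0123) were lost with single libraries left out, CBS without WT 12 h replicate 1 or KO 12 h replicate 3 (adjusted p = 0.0518 to 0.0575) and SESN3 without WT 0 h replicate 2 or KO 0 h replicate 3 (adjusted p = 0.0504 to 0.0597).

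Whether the change from 0 h itself differed between genotypes was tested directly. At 6 h, the change in KO was above that in WT for 0 members (1.64% of all symbols) and below it for 3 (1.37%). These were CTH, SLC38A2 and DDIT4, and SLC38A2 kept the call in every alternative while the other two did not. At 12 h, the change in KO was above that in WT for 2 members (1.42%), SLC7A11 and MTHFD2, and below it for 0 (0.65%). MTHFD2 was below its start in both genotypes there, at 0.459-fold in WT and 0.717-fold in KO. SLC7A11 was at 0.744-fold in WT and 1.56-fold in KO. The MTHFD2 call was lost without WT 12 h replicate 2, WT 12 h replicate 3, KO 0 h replicate 1 or KO 12 h replicate 2 (adjusted p = 0.0524 to 0.0776). At 24 h, the change in KO was above that in WT for 2 members (1.84%), WARS and EPRS, and below it for 0 (1.7%). The EPRS call was lost without WT 0 h replicate 1, WT 0 h replicate 3, WT 24 h replicate 2, KO 0 h replicate 2 or KO 24 h replicate 3 (adjusted p = 0.0562 to 0.0965). At 36 h, the change in KO was above that in WT for 11 members (4.71%) and below it for 1, SLC38A2 (4.62%). Of these 12 calls, 6 were kept in every alternative. The 6 were MTHFD2, EPRS, LARS, SARS, WARS and YARS. LARS stood at 0.567-fold of its start in WT and at 0.867-fold in KO, where its change was not called. Over the 4 later times jointly, 11 of 34 members were called, where 9.84% of all symbols and 17.5% of those averaging at least 10 CPM were. PSAT1, MTHFD2, SLC7A11, SLC38A2, AARS and WARS kept that call in every alternative.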

How the data were processed

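RNA from 30 libraries, 3 in each of 10 groups, was sequenced. The deposited values are expected counts per gene symbol, made by the authors: 195 symbols held values that were not whole (0.177% of values), which were rounded. Per the submitters' processing notes, cutadapt, STAR, DESeq2 and the builds GRCh37 and hg19 were used. Counting program, strand setting and annotation: not given in the sources used here, so overlapping genes may share reads. Mitochondrially encoded symbols (37) were kept.

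Libraries were scaled by TMM, symbols filtered with edgeR's filterByExpr (minimum count 10), and 1 quasi-likelihood model of the 10 groups was fitted (edgeR 4.0.16, R 4.3.3), giving 20 comparisons, each adjusted by Benjamini-Hochberg over 21554 symbols. The script was tested on simulated counts. Alternatives were DESeq2 1.42.0, other size factors, other filters, smaller sets of libraries, a replicate block and leaving out each library. The alternative without mitochondrially encoded symbols was chosen after seeing the data. Members and gene lists were chosen with earlier results of these data known. Values in every library are given, per role, for the 2 members (4 synthetases) with the smallest joint p among those of at least 10 CPM in some group, and for the 1 with the largest absolute change in WT at 6 h. Other lists name genes called jointly, the 3 with the smallest p, plus ATF4, DDIT3, TRIB3 and CHAC1. IFNG and the other genes named in passing were chosen after their values were seen.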

Additional observations from a re-analysis of the deposited data

Results flagged for a closer look

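For 11 members the change from 0 h differed between genotypes when the 4 later times were tested jointly. The adjusted p (edgeR's quasi-likelihood test with Benjamini-Hochberg adjustment) was 1.45e-05 for WARS and 3.52e-05 for AARS, which are tRNA synthetases. It was 0.000432 for SLC38A2 and 0.0104 for SLC7A11, which are amino acid transporters. PSAT1 had 0.00339 and MTHFD2 0.015, both enzymes of serine and one-carbon metabolism. CEBPG had 0.0374 and DDIT4 0.0257. The synthetases EPRS, LARS and SARS had 0.0178, 0.0451 and 0.046. The KO level was the higher one at 36 h for 10 of the 11, all but SLC38A2. No group held enough libraries for a test of single outlying libraries.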

How the results depend on the processing

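Of 261 member calls over the 20 comparisons, 164 were kept in every alternative run and none changed direction; 96 of the 97 that were lost in some alternative were lost by leaving out 1 library. The count of members called between genotypes at 36 h, 19, ran from 13 to 25 over the alternatives, all higher in KO except with only the groups compared, which gave 23 higher and 2 lower. At 0 h, 2 members were called between genotypes, against 1 with DESeq2 size factors, 1 with total counts, 1 without mitochondrially encoded symbols, 4 with DESeq2, 4 with no filter, 4 with only the groups compared and 0 without the 2 shallow libraries (edgeR), and 0 with any library left out. With only the groups compared, 3 rather than 16 were called at 24 h, 10 rather than 6 in WT from 6 to 12 h, and 1 rather than 2 for the difference in change at 24 h. For the difference in change at 6 h (3 members), total counts gave 5, DESeq2 5 and leaving out the shallow libraries 1. At 12 h (2 members), DESeq2 gave 4 and leaving out the shallow libraries 1. DESeq2 gave 7 for the difference in change at 24 h and 17 rather than 11 in the joint test. Leaving out 1 library gave 12 to 18 for KO at 12 h (19 with all), 6 to 12 between genotypes at 6 h, 6 to 17 at 24 h and 2 to 4 for WT from 6 to 12 h. For the difference in change it gave 1 to 3 at 6 h, 1 to 3 at 12 h, 1 to 4 at 24 h, 7 to 13 at 36 h and 7 to 15 jointly. Another scaling moved the median of all symbols in WT at 12 h from 0.116 to 0.154 (DESeq2 size factors) or 0.206 (total counts).

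With the title number as a replicate block, 4 members were called between genotypes at 0 h. Whether same-numbered libraries shared more than a number is not stated in the labels. The correlation of their deviations ran from -0.015 to 0.126 over 12 pairs, 1 of them over 0.1. Of the 12 WT libraries, 9 correlated best with the KO library of their own number, among the 3 KO libraries of that time.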
